A study of Homo sapiens with 6 samples.

Results

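The tumour necrosis factor (TNF) ligand and receptor superfamilies were examined in MDA-MB-231 cells, a human breast cancer line without estrogen receptor, after depletion of the histone demethylase LSD1. The members were taken by gene symbol from the array's platform annotation: every TNFSF and TNFRSF symbol, together with TNF, LTA, LTB, FAS, FASLG, NGFR, CD40, CD70, CD27, TRAF1 and TRAF2. This gave 41 genes, of which 40 had at least 1 probe set naming a single gene and 33 were bright enough to be tested, among 13822 genes tested in all. TRAF2 had no such probe set and was not analysed here, and TNFRSF6B and TNFSF12 were found only on probe sets that name several genes and were not analysed either. One group of 3 arrays came from cells transfected with control siRNA and the other group of 3 arrays from cells transfected with LSD1 siRNA. The replicates are biological replicates of 1 cell line, harvested on day 6 after 2 rounds of transfection, with 2.5 ug of total RNA labelled per array. The labels used here give neither the siRNA sequences nor whether several were pooled.

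TNF ligands are mostly membrane-bound trimers that can be cut from the cell surface, and they bind receptors with cysteine-rich repeats outside the cell. Some receptors carry an intracellular death domain, through which they can recruit FADD, TRADD and caspases. Others carry short motifs that recruit TRAF adaptors and lead to NF-kappaB and JNK signalling. A few receptors lack a working intracellular part and act as decoys that bind the ligand without a death signal. Many ligands of the family are best known from leukocytes, while TRAIL receptors, FAS and TNFRSF1A are widely expressed in epithelial tumour cells.

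The signal is the deposited linear intensity of a probe set, and a log2 change is the difference of mean log2(signal + 15), LSD1 siRNA minus control siRNA. A change counted as past the test when limma's Benjamini-Hochberg adjusted p over all 13822 genes was at most 0.05. KDM1A, which encodes LSD1, read 2540, 2493 and 2295 with control siRNA and 291, 184 and 228 with LSD1 siRNA. Its level with LSD1 siRNA was 9.58% of control (log2 change -3.32, SE 0.13, limma adjusted p = 1.46e-08). An exact two-sided permutation test of those 6 signals gave p = 0.1, the smallest value that 3 against 3 arrays allow, and the same floor holds for every gene here. The trimmed mean signal was 500.1 on each array, so a change in total RNA per cell is not visible. The ratio of ACTB signal at the 3' end to that at the 5' end was 1.74 on control array 1 and ranged from 1.33 to 1.43 elsewhere. In RNA from whole cultures, fewer cells with a transcript and less transcript per cell cannot be told apart.

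The superfamilies moved mainly upward. Of the 33 members tested, 16 rose and 2 fell, and 15 did not pass. Among all genes tested, 41.0% passed, 19.8% as higher and 21.3% as lower, while 48.5% of the members were higher and 6.06% lower. The median log2 change of the members was 0.30, and that of all genes was -0.02. The 2 groups of arrays did not overlap for 20 of the 33 members, 60.6%, where 50.4% of all genes were separated in this way. At least 2-fold rises were found for 6 members, TNFRSF9, TNFSF15, TNFRSF1B, TNFSF9, TNFSF13B and TNFRSF11B, 18.2% of those tested against 3.23% of all genes. TNFSF18 was the only member that fell by at least 2-fold, as did 1.40% of all genes. The TNF gene itself was dim and did not pass.

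**Figure D1:**
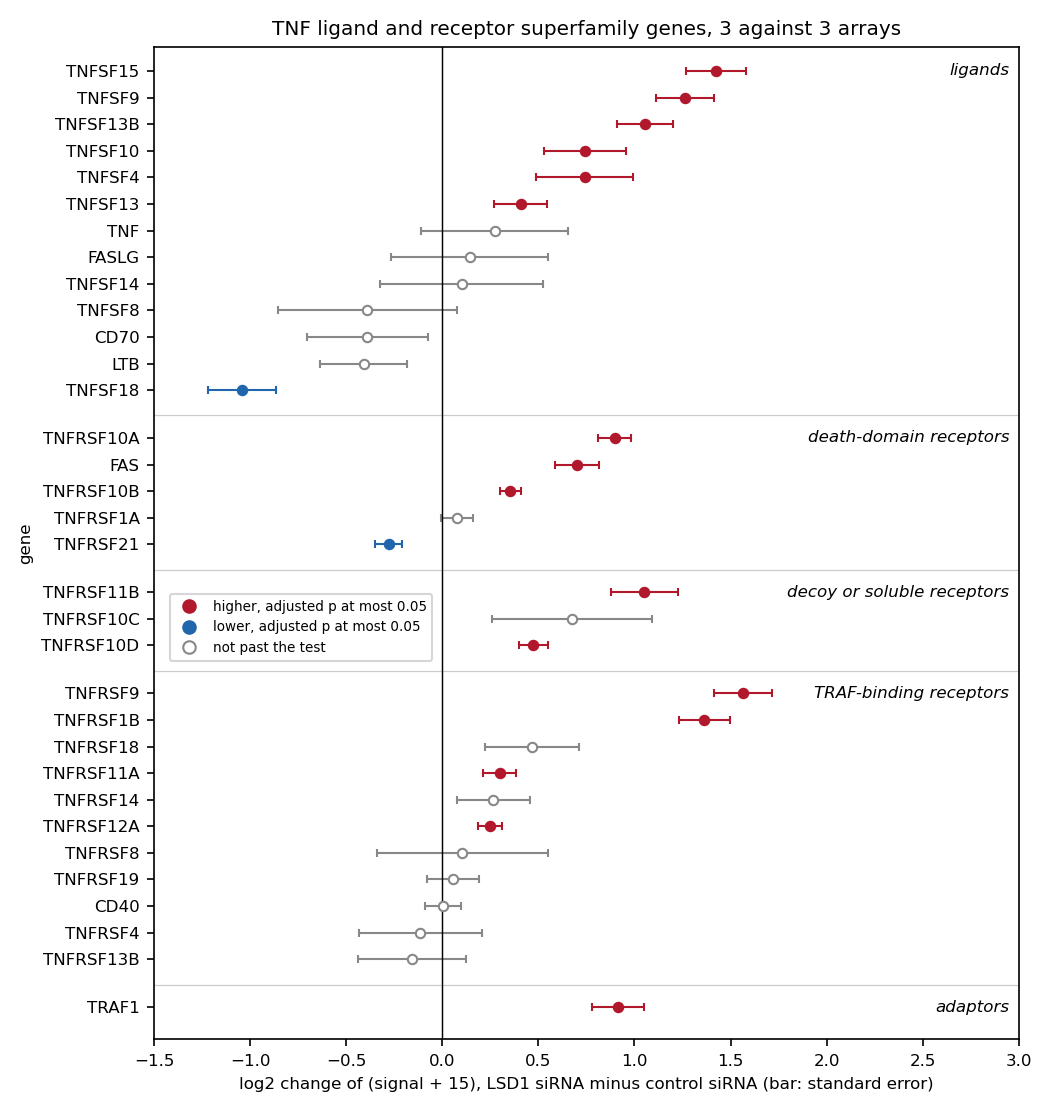
Log2 change of each of the 33 members tested (x axis, LSD1 siRNA minus control siRNA, on the log2(signal + 15) scale, bars are standard errors), grouped by role. The 16 red points lie between 0.25 and 1.57, and the blue points are TNFSF18 at -1.04 and TNFRSF21 at -0.28.

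The sequences before the transcription start are shown for members with the largest changes that have a single start in the table, and for TNFSF4, the neighbour of TNFSF18 in the genome that went the other way. Each is the 200 bases before the RefSeq start in GRCh38.p14, given 5′ to 3′ on the strand of the gene. Capitals mark matches to the NF-kappaB consensus, to the AP-1 site TGANTCA or to the TATA box TATAAA, searched on both strands.
TNFRSF9 (chr1:7940840-7941039, minus strand): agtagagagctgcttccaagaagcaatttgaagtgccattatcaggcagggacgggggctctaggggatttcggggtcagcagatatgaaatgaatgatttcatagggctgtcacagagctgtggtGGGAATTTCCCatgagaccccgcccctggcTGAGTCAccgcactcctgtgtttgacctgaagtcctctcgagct
TNFSF15 (chr9:114792531-114792730, minus strand): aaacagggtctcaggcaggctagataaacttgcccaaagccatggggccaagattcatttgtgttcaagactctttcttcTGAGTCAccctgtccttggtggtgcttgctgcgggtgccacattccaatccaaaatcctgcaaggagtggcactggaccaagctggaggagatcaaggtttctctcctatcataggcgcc
TNFRSF1B (chr1:12166791-12166990, plus strand): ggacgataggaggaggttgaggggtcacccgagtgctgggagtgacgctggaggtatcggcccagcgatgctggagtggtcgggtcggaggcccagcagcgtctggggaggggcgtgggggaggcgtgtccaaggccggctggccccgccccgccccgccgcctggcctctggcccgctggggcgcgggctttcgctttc
TNFSF9 (chr19:6530826-6531025, plus strand): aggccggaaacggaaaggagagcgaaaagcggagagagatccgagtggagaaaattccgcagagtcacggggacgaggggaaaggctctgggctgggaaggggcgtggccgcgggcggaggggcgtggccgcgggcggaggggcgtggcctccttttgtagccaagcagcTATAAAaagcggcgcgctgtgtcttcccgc
TNFSF18 (chr1:173050942-173051141, minus strand): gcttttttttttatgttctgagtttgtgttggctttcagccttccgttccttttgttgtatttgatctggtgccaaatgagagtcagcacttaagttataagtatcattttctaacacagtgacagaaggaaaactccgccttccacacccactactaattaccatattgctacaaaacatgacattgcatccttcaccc
TNFSF4 (chr1:173205533-173205732, minus strand): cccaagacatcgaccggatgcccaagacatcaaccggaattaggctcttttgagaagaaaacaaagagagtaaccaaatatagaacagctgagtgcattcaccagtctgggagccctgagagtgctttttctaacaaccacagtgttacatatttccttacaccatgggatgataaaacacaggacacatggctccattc

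TNFRSF9 holds overlapping NF-kappaB matches that begin 74 and 73 bases before its start, and an AP-1 match 44 bases before it. TNFSF15 holds an AP-1 match 120 bases before its start, and TNFSF9 a TATA box 30 bases before its start. The windows of TNFRSF1B, TNFSF18 and TNFSF4 hold none of the 3 motifs. Their base composition differs: 73.5% of the TNFRSF1B window is G or C and 39.0% of the TNFSF18 window, where the median over all starts is 59%. Of 28 members matched in the table, 9 hold an NF-kappaB match before at least 1 start, 3 of the 11 that rose, neither of the 2 that fell and 6 of the other 15. Over all 27305 genes in the table the share is 9.71%. An AP-1 match was held by 3 of the 28 members (2 of the 11 that rose) and by 6.63% of all genes, and a TATA box by 5 members (2 of the 11 that rose) and 10.5% of all genes.

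Ligands differed among themselves. Of 13 ligand genes tested, 6 rose (46.2%, against 19.8% of all genes), 1 fell (7.69%, against 21.3%) and 6 did not pass. TNFSF15, which encodes TL1A, a ligand known from endothelial cells and gut inflammation, had the largest rise among them by the brightest probe set; with the mean of all probe sets TNFSF13B was higher, at 1.51 against 1.23. Its signals were 101, 101 and 79.4 with control siRNA and 283, 282 and 261 with LSD1 siRNA. All 3 LSD1 siRNA arrays lay above all control arrays, a rise of 1.42 on the log2 scale (SE 0.16, limma adjusted p = 2.28e-05).

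TNFSF9, the gene of CD137 ligand, a costimulator of T cells, read 195, 200.2 and 135 in the control arrays and 444, 419 and 454 in the LSD1 siRNA arrays. The groups were well apart, with a rise of 1.26 (SE 0.15, limma adjusted p = 4.1e-05). TNFSF13B encodes BAFF, a survival factor for B cells, and its signals went from 111, 132 and 109 to 259, 254 and 264. The 3 treated values differed by little, and the rise was 1.06 (SE 0.15, limma adjusted p = 0.000129). A second TNFSF13B probe set changed from a mean of 61.8 to 284, a log2 change of 1.97, so the size of this rise depends on the probe set.

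TNFSF10, which encodes TRAIL, the ligand of death receptors that can kill tumour cells, had control signals of 123, 76.1 and 78.3. With LSD1 siRNA its signals were 143, 188 and 157, all above the highest control. The rise was 0.74 (SE 0.21, limma adjusted p = 0.0143), but the adjusted p rose to 0.0516 when control replicate 2 was left out and to 0.0661 when LSD1 siRNA replicate 2 was. TNFSF4, the gene of OX40 ligand, another T cell costimulator, read 64.9, 54.1 and 106 against 108, 166 and 125. Its highest control array nearly touched its lowest LSD1 siRNA array. The rise of 0.74 (SE 0.25) had a limma adjusted p of 0.0343, and of 0.0868, 0.117, 0.142 and 0.0702 without control replicates 1 and 2 and LSD1 siRNA replicates 2 and 3. With no filter on dim genes the TNFSF4 adjusted p was 0.0791 and with no intensity trend 0.0640.

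TNFSF13, the gene of APRIL, a relative of BAFF, went from 168, 179 and 156 to 235, 235 and 210. The rise was smaller, at 0.41 (SE 0.14, limma adjusted p = 0.0348). It missed the threshold with adjusted p of 0.0613, 0.0860, 0.0990 and 0.106 without control replicates 1 and 3 and LSD1 siRNA replicates 1 and 2. It also missed it with a replicate block (0.0508) and with no filter (0.0774). The sole TNFSF13 probe set used carries the x suffix, a mark of possible cross-hybridisation.

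TNFSF18 encodes GITR ligand, a costimulator known from endothelial and antigen-presenting cells. It went the other way, from 249, 240.4 and 189 with control siRNA to 89.2, 95.7 and 121 with LSD1 siRNA. No treated array reached the lowest control array, and the fall was -1.04 (SE 0.18, limma adjusted p = 0.000559). The mean level with LSD1 siRNA was 45.1% of control.

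TNF and the lymphotoxin genes gave no call. TNF, the inflammatory cytokine, read 52.6, 29.9 and 11.7 in control arrays and 38.3, 32.3 and 41.6 in LSD1 siRNA arrays. These values overlapped, and the change of 0.27 had a 95% interval from -0.57 to 1.11 (limma adjusted p = 0.614). Without control replicate 3, the lowest array, it was -0.076. LTA, the lymphotoxin alpha gene, never exceeded a signal of 8.23 and was below the filter. LTB, the gene of its membrane partner lymphotoxin beta, read 81.3, 84.2 and 87.7 against 71.4, 51.2 and 58.3. Its arrays were separated, but the change of -0.41 did not pass (limma adjusted p = 0.176); with no intensity trend it did (0.0337). A dimmer LTB probe set had a change of 0.36, of the other sign, and did not pass either.

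FASLG, the ligand of FAS, had signals from 8.95 to 44.2 and a change of 0.14 (limma adjusted p = 0.814), or -0.28 without control replicate 2. CD70, the ligand of CD27, went from a mean of 51.1 ± 12.2 to 36.0 ± 12.6 (SD, n = 3), with a change of -0.39 (limma adjusted p = 0.365). TNFSF8 and TNFSF14 did not pass either, and TNFSF11, the gene of RANK ligand, was below the filter with signals of at most 23.0. For these dim ligands the array gives wide intervals. The FASLG interval, for example, ran from -0.75 to 1.04.

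**Figure D2:**
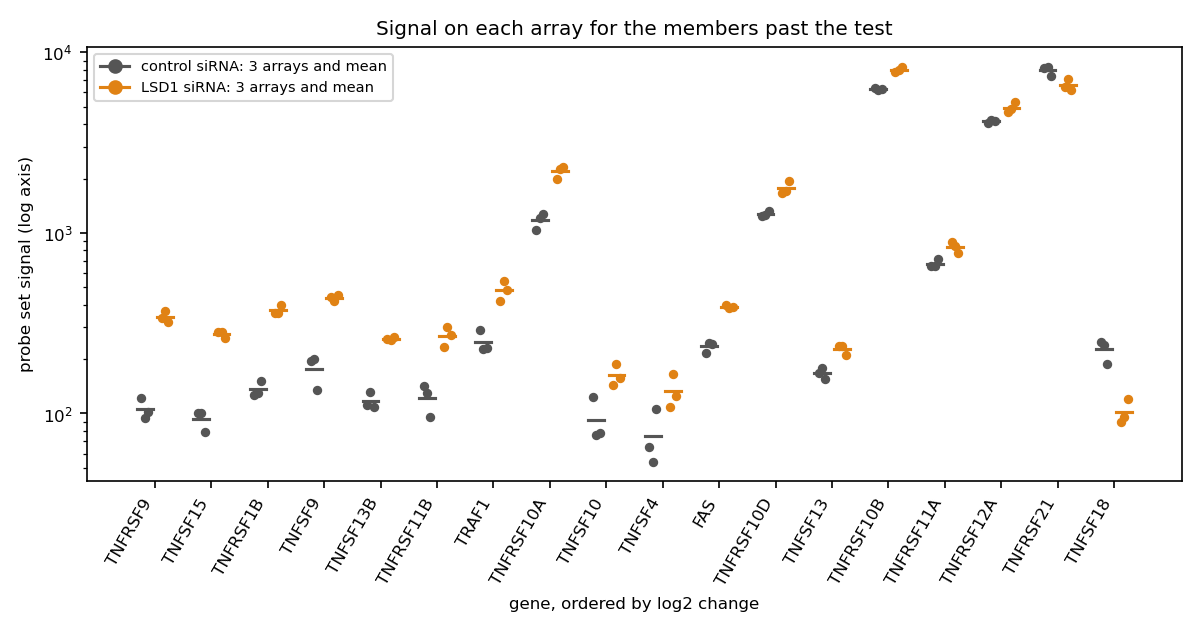
Probe set signal on each array (y axis, log scale) for the 18 members past the test, ordered by log2 change; dots are arrays and lines are group means of 3. The groups do not overlap for any of these genes, and the gap is narrowest for TNFSF4, with 106 on the highest control array and 108 on the lowest LSD1 siRNA array.

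Of 5 death-domain receptors tested, 3 rose, 1 fell and 1 did not pass. With so few genes the count is a description, beside 19.8% higher and 21.3% lower among all genes. TNFRSF10A, a death receptor for TRAIL, read 1036, 1210 and 1272 with control siRNA and 2000.4, 2270 and 2305 with LSD1 siRNA. The arrays were far apart and the rise was 0.90 (SE 0.09, limma adjusted p = 9.85e-06). All 3 TNFRSF10A probe sets above the filter rose, by 0.90, 0.69 and 0.81. TNFRSF10B, the other death receptor for TRAIL, was bright already, at 6383, 6220 and 6233, and reached 7775, 7999 and 8320. That rise of 0.35 (SE 0.06) was small but clear of the replicate spread (limma adjusted p = 0.000338). Tested probe set by probe set, a dim TNFRSF10B set rose by 1.21, and a pair of sets with the x suffix had changes of 0.34 and 0.08 that did not pass.

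FAS, the receptor that FASLG triggers, went from 216, 246 and 243 to 401, 384 and 387. The treated arrays were tightly grouped, and the rise was 0.70 (SE 0.11, limma adjusted p = 0.000372). Of 5 FAS probe sets above the filter, 4 rose, by 0.70 to 1.30, and a dim one had a change of -0.21 that did not pass. TNFRSF1A, the main receptor for TNF on most cells, read 2756, 2619 and 2408 against 2939, 2852 and 2436. Its arrays overlapped, and the change of 0.08 had a 95% interval from -0.10 to 0.26 (limma adjusted p = 0.495).

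TNFRSF21, which encodes death receptor DR6, fell. Its control signals of 8165, 8265 and 7439 all lay above those with LSD1 siRNA, 6393, 7123 and 6150. The fall was -0.28 (SE 0.07, limma adjusted p = 0.00742), and dropping the intensity trend gave an adjusted p of 0.0512. The other TNFRSF21 probe set had a change of -0.21 that did not pass at the probe set level (adjusted p = 0.0574 with limma). NGFR, the nerve growth factor receptor gene, was below the filter with signals of at most 3.96. TNFRSF25, the receptor of TL1A, was represented by a set below the filter with signals from 14.3 to 85.5. A pair of TNFRSF25 sets with the x suffix did pass the filter, and their changes of 0.44 and 0.65 did not pass the test.

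Of the 3 decoy and soluble receptors tested, 2 rose and none fell, a description of few genes. Among all genes, 19.8% were higher and 21.3% lower. TNFRSF11B encodes osteoprotegerin, a secreted receptor that binds RANK ligand and TRAIL. Its signals went from 143, 129 and 95.3 to 234, 299.7 and 271, a rise of 1.05 (SE 0.17, limma adjusted p = 0.000463). A second TNFRSF11B probe set rose by 1.44. TNFRSF10D, a TRAIL receptor with a truncated death domain, read 1233, 1259 and 1318 in controls and 1673, 1713 and 1931 after LSD1 siRNA. It rose by 0.47 (SE 0.07, limma adjusted p = 0.000289), and its dimmer probe set by 0.61. TNFRSF10C, a lipid-anchored TRAIL decoy, had signals from 5.21 to 56.3, and its change of 0.68 did not pass (95% interval -0.23 to 1.59, limma adjusted p = 0.225). TNFRSF10C passed the filter only through its LSD1 siRNA mean, and a second set had a change of -0.23. The 4 TRAIL receptor genes are close paralogs, so their probe sets may take signal from one another.

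Of 11 receptors tested that bind TRAFs and have no death domain, 4 rose, none fell and 7 did not pass. The 36.4% that passed is near the 41.0% of all genes. All 4 were higher, where all genes split into 19.8% higher and 21.3% lower. TNFRSF9, which encodes CD137, an inducible costimulatory receptor of T cells, read 123, 94.7 and 102 with control siRNA and 336, 371 and 323 with LSD1 siRNA. Its mean signal was 3.23-fold higher and the log2 rise of 1.57 (SE 0.15) was the largest among the members in the gene test (limma adjusted p = 7.35e-06). With the mean of all probe sets it was 1.34, below TNFSF13B (1.51) and TNFRSF1B (1.36). A second, dimmer TNFRSF9 probe set rose by 1.48. TNFRSF1B, the TNF receptor that binds TRAF2 directly and is typical of leukocytes and endothelium, went from 127, 130 and 151 to 362, 359.7 and 397. It rose by 1.36 (SE 0.13, limma adjusted p = 9.04e-06). The separation from control was complete for both receptors.

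TNFRSF12A, the receptor for TWEAK, was bright and rose little, from 4082, 4206 and 4154 to 4689, 4850 and 5277. That change was 0.25 (SE 0.06, limma adjusted p = 0.00647). TNFRSF11A, the gene of RANK, a receptor known from osteoclasts and mammary epithelium, went from 655, 652 and 717 to 886, 847 and 771. It rose by 0.30 (SE 0.09, limma adjusted p = 0.0148). This call was lost without LSD1 siRNA replicate 1 (0.0626), without LSD1 siRNA replicate 2 (0.0513) and with the mean of its probe sets, 0.15 (0.217). The other TNFRSF11A set had a change of 0.00.

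CD40, a receptor for T cell help that many carcinoma lines carry, was measured well and did not pass. It read 607, 624 and 624 with control siRNA and 561, 621 and 680 with LSD1 siRNA. The change of 0.00 had a 95% interval from -0.20 to 0.20, which corresponds to between 0.870-fold and 1.15-fold. All 4 CD40 probe sets above the filter missed the threshold, with changes from -0.30 to 0.36. TNFRSF14, TNFRSF18 and TNFRSF19 had changes of 0.27, 0.47 and 0.05. The TNFRSF18 arrays did not overlap, and its limma adjusted p was 0.152, or 0.0194 if no intensity trend was fitted. TNFRSF4, TNFRSF8 and TNFRSF13B were dim, with group means of at most 56.3. CD27, TNFRSF13C and TNFRSF17 were below the filter, with signals of at most 56.5.

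TRAF1, an adaptor that joins TRAF2 on receptors such as TNFRSF1B and TNFRSF9 and is itself an NF-kappaB target, rose. Its control signals were 290.3, 227 and 231, and those with LSD1 siRNA were 420, 545 and 483. The rise was 0.91 (SE 0.13, limma adjusted p = 0.000200), and a dimmer TRAF1 probe set rose by 0.92.

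The calls differed with brightness. All 11 members with a mean signal under 100 missed the threshold, where 6.67% of all genes that dim passed. Of the 22 members at 100 or more, 18 passed, 81.8%, against 51.4% of all genes at that level. The mean was taken over all 6 arrays, so the change of a gene helped to set its side of 100. TNFSF15, TNFSF10 and TNFSF4 had control means under 100 and were placed above it by their LSD1 siRNA arrays. The split by brightness was therefore partly set by the values that made the calls. The median standard error was 0.38 for the dim members and 0.13 for the brighter ones. The 4 brighter members that did not pass were TNFRSF1A, CD40, TNFRSF14 and TNFRSF19.

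Probe sets of one gene differed for several members. The members hold 80 probe sets, of which 62 were above the filter, and 29 of these rose and 2 fell in a separate limma test over 27079 probe sets, of which 34.4% passed. Of 18 members with several sets above the filter, 7 had every set past the test in 1 direction, 6 had none past and 5 were mixed. No member had sets past the test in opposite directions. The mixed members were FAS, TNFRSF10B, TNFRSF11A, TNFRSF21 and TNFSF10. Among the 6 with none past, CD40, LTB, TNFRSF10C, TNFRSF18 and TNFRSF19 had sets with changes of opposite sign.

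**Figure D3:**
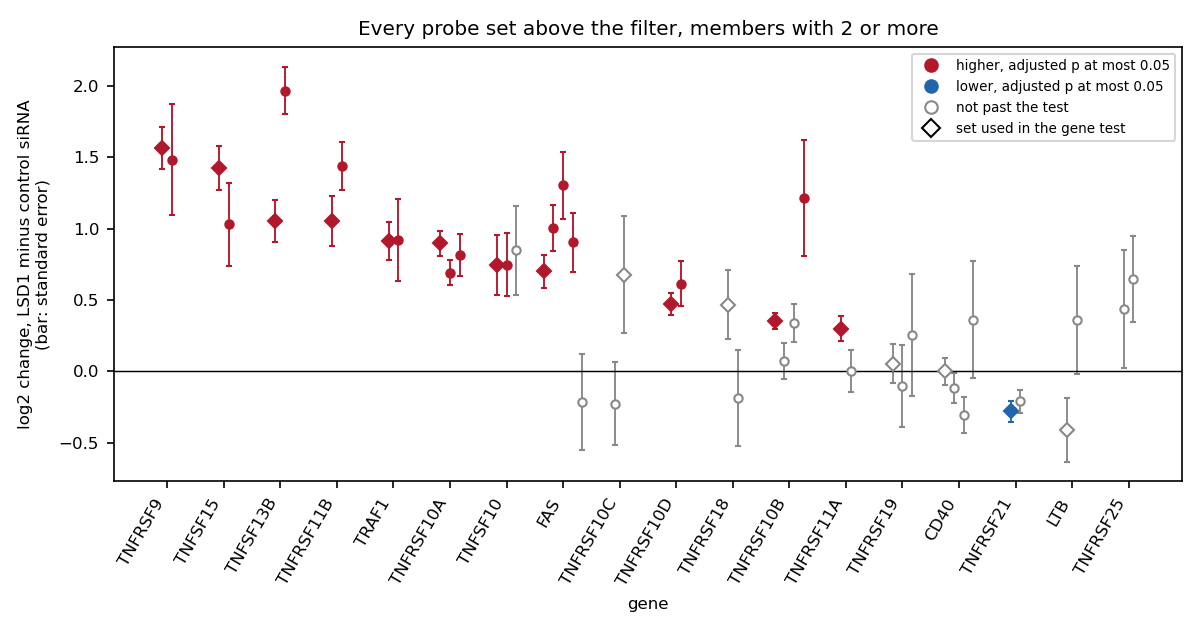
Log2 change of each probe set above the filter (y axis, bars are standard errors) for the 18 members with several; diamonds mark the set used in the gene test. All filled points of a gene lie on one side of 0, and TNFSF13B shows the spread in size, at 1.06 and 1.97.

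Known ligand and receptor partners were set side by side. Of 24 pairs listed, 15 had both genes tested. Both partners rose in 5 pairs: TNFSF9 with TNFRSF9, and TNFSF10 with each of TNFRSF10A, TNFRSF10B, TNFRSF10D and TNFRSF11B, which share the ligand. Every pair with TNFSF10 rests on its single call. That call was lost without control replicate 2 (limma adjusted p = 0.0516) or LSD1 siRNA replicate 2 (0.0661). Of all single genes tested, 19.8% were higher. The CD137 ligand and receptor were the pair with the highest rises, at 1.26 and 1.57. For FAS and TNFRSF1B the receptor rose while the ligand tested with it, FASLG or TNF, did not pass. In 4 pairs the ligand rose and the receptor did not pass: TNFSF4 with TNFRSF4, TNFSF10 with TNFRSF10C, and TNFSF13B and TNFSF13 with TNFRSF13B. TNFSF18 fell, and its receptor TNFRSF18 had a change of 0.47 that did not pass. In the other 3 pairs neither partner passed. The BAFF receptor TNFRSF13C and the shared receptor TNFRSF17 were below the filter, as was the TL1A receptor.

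**Figure D4:**
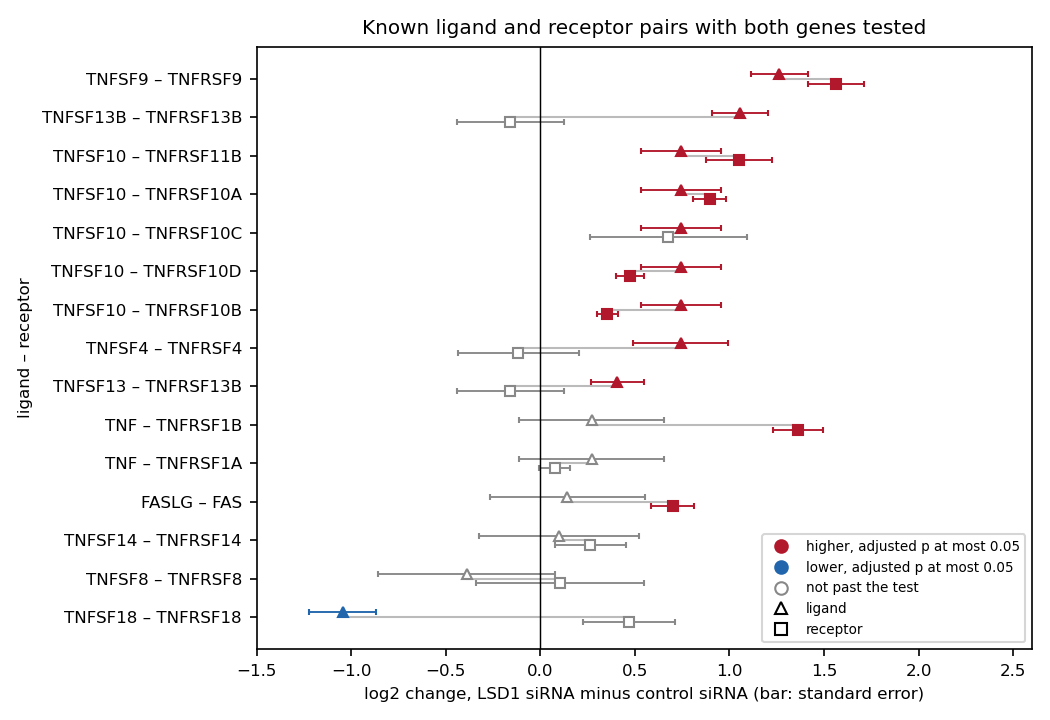
Log2 change of the ligand (triangle) and of its receptor (square) in the 15 pairs with both genes tested (x axis, LSD1 siRNA minus control siRNA, bars are standard errors). Both symbols are filled red in 5 pairs, and TNFSF18 at -1.04 lies opposite its receptor at 0.47.

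Several members are neighbours in the genome, and some neighbours differed in their change. In the order of protein-coding genes of the RefSeq table (GRCh38.p14), 13 pairs of members lie with at most 2 other genes between them. TNFSF18 and TNFSF4 are direct neighbours on chromosome 1, and the first fell by 1.04 while the second rose by 0.74. FASLG, on the other side of TNFSF18, did not pass. On chromosome 19 TNFSF9 rose, while its neighbour CD70 (-0.39) and the next gene, TNFSF14 (0.10), did not pass. On chromosome 9 TNFSF15 rose beside TNFSF8 (-0.39), which did not pass, and on chromosome 1 TNFRSF1B rose beside TNFRSF8 (0.10), which did not pass. The TRAIL receptor genes lie in a row on chromosome 8, and TNFRSF10B, TNFRSF10D and TNFRSF10A rose there. LTA, TNF and LTB lie in a row on chromosome 6, and none was called.

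Genes downstream of TNF receptors were described from lists of pathway genes, each read by its counts beside the 41.0% of all genes that passed. Of 13 measured genes of death receptor signalling, 6 rose and 3 fell, 69.2% in all, with a median change of 0.29. All 13 had group means above 100, and 51.4% of all genes with a mean signal of 100 or more passed. CASP8, the initiator caspase of death receptors, rose from 1221, 1326 and 1602 to 2224, 2236 and 2796, a change of 0.80 (SE 0.11, limma adjusted p = 0.000119). BID, the BH3 protein that caspase-8 cuts, rose by 0.48 and the adaptor gene TRADD by 0.57. FAF1, which binds FAS, fell by 0.48, and the effector caspase gene CASP6 and the IAP antagonist gene DIABLO fell by 0.32 and 0.21. With the mean of all probe sets TRADD was at 0.25 (limma adjusted p = 0.200), CASP8 at 0.53, BID at 0.33, CASP6 at -0.20 and FAF1 at -0.35. With no intensity trend DIABLO had a limma adjusted p of 0.0506 and 3 genes of the list rose.

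The list of adaptors and kinases between receptors and NF-kappaB was split. It also holds genes of deubiquitinases and inhibitors, and the mitochondrial chaperone gene TRAP1, which are neither adaptors nor kinases. Among its 24 measured genes, 5 were higher and 4 lower, 37.5%, with a median of 0.04. CYLD, a deubiquitinase that restrains TNF receptor signalling, rose from 355, 363 and 446 to 886, 989 and 958, a change of 1.26 (SE 0.10, limma adjusted p = 2.57e-06). TNIP3, a gene of an inhibitor that binds A20, rose by 2.47 from a dim mean of 50.5 ± 14.4 (SD, n = 3) to 345 ± 68.5 (SD, n = 3). TANK, which binds TRAFs, rose by 0.73. TRAF3, an inhibitor of the alternative NF-kappaB pathway, fell by 0.60, the linear-ubiquitin deubiquitinase gene OTULIN by 0.76, the mitochondrial chaperone gene TRAP1 by 0.86 and the kinase gene MAP3K7 by 0.27. With the mean of all probe sets CYLD was at 0.86, TRAF3 at -0.25 (limma adjusted p = 0.103), OTULIN at -0.47 and TRAP1 at -0.47. In that setting 3 genes of the list rose.

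Genes known to be induced by TNF rose in large part, and TNF itself did not pass. Of 27 measured, 19 rose and 2 fell, 77.8%, with a median of 0.69. Among the 19, CCL5 (mean signal 21.9 to 62.6) and CXCL2 (28.4 to 85.8) passed the filter only through their LSD1 siRNA arrays. Their control means on the log2 scale were below it, so their place in the count was partly set by their rise. With the filter at the 60th percentile, 17 of 25 rose. The 4 with the smallest p were the chemokine genes CCL20 (5.50), CXCL3 (4.35) and CXCL1 (2.43) and the cytokine gene IL6 (2.65), each with a larger log2 change than any superfamily member had in the gene test. TNFAIP1 and GADD45B fell by 0.57 and 0.26. These genes also respond to other stimuli, such as interleukin-1.

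Of 8 genes that act on shedding of ligands and receptors, 4 rose and none fell, 50% in all, with a median of 0.18. Among all genes 41.0% passed, 19.8% as higher and 21.3% as lower. All 8 had group means above 100, and the share of all genes past the test at a mean signal of 100 or more was 51.4%. ADAM17, the sheddase that releases TNF and both TNF receptors, rose from 1566, 1652 and 1618 to 2316, 2289 and 2373, a change of 0.52 (SE 0.06, limma adjusted p = 3.15e-05). NUCB2 rose by 0.59 (0.32 when its probe sets were averaged), the convertase gene FURIN by 0.46 and TIMP3, an inhibitor of ADAM17, by 0.19. The FURIN adjusted p was 0.0297, and 0.0789, 0.0803, 0.0766 and 0.110 without control replicates 1 and 3 and LSD1 siRNA replicates 1 and 3. TIMP3 stood at an adjusted p of 0.0458 and missed the threshold in 9 of 15 alternatives. The list had 2 rises when control replicate 1, LSD1 siRNA replicate 1 or LSD1 siRNA replicate 3 was left out. A list of 6 superfamily genes whose symbols fall outside the rule had 1 without a probe set and 2 below the filter. The 3 tested were LTBR, RELT and EDAR, and none passed (changes from -0.06 to 0.24). LTBR, the lymphotoxin beta receptor gene, had an adjusted p of 0.0547. Of the 3, 1 passed when control replicate 1 or LSD1 siRNA replicate 3 was left out, and also with median centring, a replicate block or the filter at the 60th percentile.

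**Figure D5:**
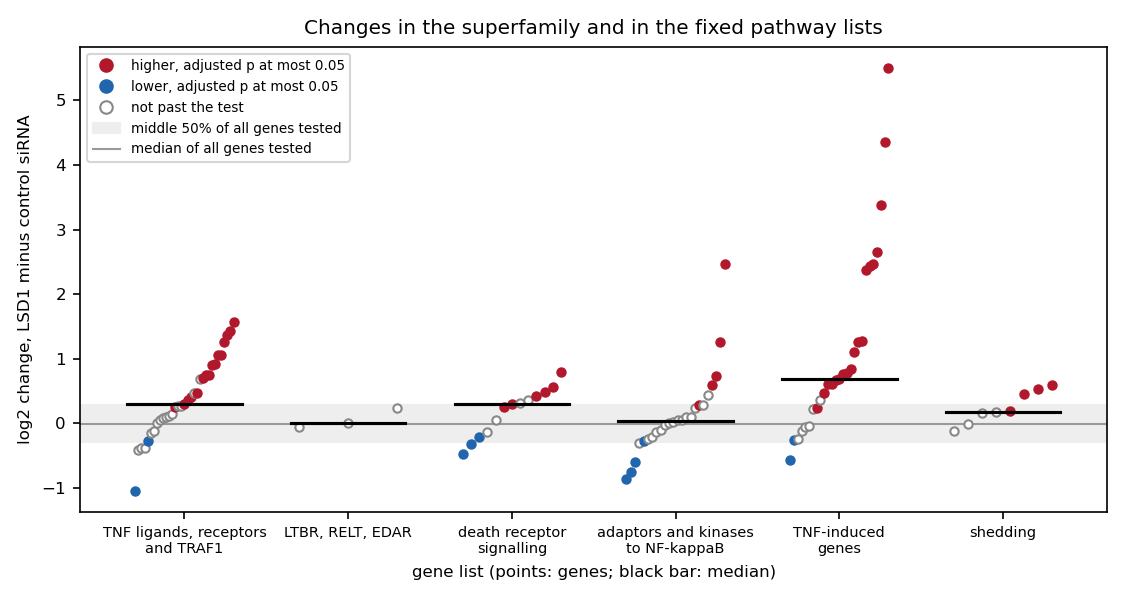
Log2 change of each tested gene (y axis) in the superfamilies and in the pathway lists; black bars are medians, and the grey band holds the middle 50% of all genes tested, from -0.29 to 0.27. The medians are 0.30 for the superfamilies and 0.69 for the TNF-induced genes.

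Marker genes described the cells the RNA came from. All 6 genes of a list known to be high in this line, VIM, CD44, AXL, CAV1, MSN and EGFR, were bright in both groups. MSN rose by 0.60 and EGFR fell by 0.25, from a mean of 4732 to 3959, and the other 4 did not pass. The hormone receptor genes ESR1 and PGR had means of at most 75.7. EPCAM was not absent, at 1658 with control siRNA and 1644 with LSD1 siRNA. ERBB2 (581 and 507), GATA3 (523 and 513), FOXA1 (216 and 231) and CDH1 (163 and 129) also gave signal, while KRT5 was below the filter. These genes make up a list of 8 held to be low or absent in this line, and none of the 7 tested passed. Of 14 leukocyte markers, 9 were tested and 1 rose, LAPTM5. The summed signal of the leukocyte markers lay between 3611 and 4129 in control arrays and between 8168 and 8201 with LSD1 siRNA. Without LAPTM5 the sums were 619.9 to 702 and 730.0 to 865. The pan-leukocyte gene PTPRC and the lymphocyte genes NKG7, GNLY and MS4A1 were below the filter, with signals of at most 43.8. Higher means with LSD1 siRNA that did not pass were those of CSF1R (137 to 189), CD53 (85.4 to 107), CD3D (30.1 to 60.2) and CD2 (32.2 to 58.5). CORO1A (74.9 to 81.9) and CD14 (43.9 to 47.5) were slightly higher and did not pass either. CD3E had a lower mean (69.7 to 51.3) that did not pass, while CD79A, with 119 and 114, reached 185 on 1 array. Of 5 fibroblast markers 3 were tested, and of 5 endothelial markers 2, and none of those tested passed. LUM, a fibroblast marker below the filter, read 1.90 with control siRNA and 95.2 with LSD1 siRNA on average. The part of other cell types in the changes of the ligands best known from leukocytes was not tested.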

How the data were processed

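RNA from 3 control siRNA and 3 LSD1 siRNA cultures was hybridised to 1 Affymetrix expression array each. The deposited values are linear signal intensities, 1 per probe set; GCOS, Affymetrix Expression Console 1.1 and MAS5 are named, without their roles, in the submitters' processing notes. All 6 arrays share a trimmed mean of 500.1 (2% trimmed at each end), tested on the values. Since such arrays give no read counts, precision rests on the 3 arrays per group.

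A constant of 15, the 25th percentile of all signals, was added before taking log2, which understates changes of dim genes. Of 54675 probe sets, 41091 name 1 gene, 1801 name several, 11721 are not listed in the annotation used here and 62 are controls. Each gene was represented by its brightest single-gene set, with sets of the x suffix used only where no other existed. Genes below the 40th percentile (a signal of 28.0) were not tested. limma 3.58.1 in R 4.3.3, with an intensity trend and Benjamini-Hochberg adjustment, was fitted to all 13822 remaining genes; the median standard error was 0.11. The code was tested on simulated data. The labels call the replicates biological without saying how the cultures were separated.

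Named genes are KDM1A, each member past the test, the members listed by name, members whose probe sets differ in sign or call, and, from each list, up to 4 genes past the test with the smallest p plus those against its majority; any other gene was picked with its values in view. The members and lists were chosen with earlier results of these data known, so their counts are descriptions. Same-numbered arrays did not deviate together. Alternatives changed the constant, filter, normalization, variance trend, replicate block and probe set rule, and left out each array in turn. Promoter sequences and gene order come from RefSeq (GRCh38.p14). Probe sets naming several genes were left out.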

Additional observations from a re-analysis of the deposited data

How the results depend on the processing

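Over 15 alternatives, 64 results gave 950 comparisons with the main values: 894 stayed on their side of the threshold with the same direction, or within 1.5 times for counts, 35 lost the threshold, 2 gained it, 12 counts or shares moved by over 1.5 times, and 7 changed sign. All 7 were changes that passed in neither fit: CD40 was at -0.013 with the mean of all probe sets, and over fits that each left out 1 array CD40 ran from -0.064 to 0.071 (below 0 in 3), FASLG from -0.28 to 0.37, TNF from -0.076 to 0.59 and TNFRSF19 from -0.023 to 0.13 (each below 0 in 1). Of the 18 members past the test, 13 passed under all 15. Leaving out 1 array at a time gave 12 to 15 members higher and 2 lower, 23 to 30 member probe sets past the test, and a KDM1A change from -3.48 to -3.17. Genes higher among receptors outside the symbol rule numbered 1 with the filter at the 60th percentile, with median centring and with the replicate block, and 0 to 1 without 1 array. Genes higher in death receptor signalling numbered 3 with no intensity trend, and in the adaptors and kinases 3 with the mean of all probe sets. Genes higher in shedding numbered 2 with no filter and 2 to 3 without 1 array. With no filter 26.5% of 19775 genes passed. The cause of these moves was not tested, except that fewer arrays or more genes entered some fits. Arrays with the same replicate number showed no shared deviation: same-number correlations of deviations were 0.01, -0.01 and 0.02. Whether those cultures were handled together cannot be read from these values, and the labels do not say. With the replicate block 17 members passed, TNFSF13 being lost. The 11 members under a mean signal of 100 had a median standard error of 0.38, which limits what could be called among them. Another background correction and a slide block were not run.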
